A study of Mus musculus with 11 samples.

Results

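Basal and luminal cells of the terminal end buds (TEBs) of pubertal mice were compared by bulk RNA-seq, using the 6 libraries of these structures, 3 from each cell type, of the 11 in the series. Of 27179 gene identifiers counted, 17370 passed a filter on low counts, and all of these were tested. The mice were C57BL/6 carrying GFP joined to E-cadherin, aged 5 weeks, and no treatment was given to any group. TEBs were dissected under fluorescence, and cells negative for blood and endothelial antigens and positive for CD29 and CD24 were sorted as luminal (GFP high) or basal (GFP low), with at least 2 mice pooled for each replicate. The other 5 libraries came from the subtending ducts of mice of the same age, 3 from basal and 2 from luminal cells. Each library is therefore an average over a sorted pool, and a fall in the RNA of each cell and a smaller share of cells expressing a gene cannot be told apart.

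TEBs are the bulbous tips through which the ductal tree advances into the fat pad during puberty. Their outer layer, the cap, is continuous with the basal layer of the duct, lies on the basement membrane and gives rise to contractile myoepithelial cells. The inner body cells are luminal, and include cells with hormone receptors that relay estrogen and progesterone signals to their neighbours through secreted factors.

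Values are CPM, read counts divided by a library size that was scaled for composition with TMM, and are listed in the order of replicates 1, 2 and 3. Changes, marked log2, are log2 fold changes of basal over luminal cells ± their standard error (SE). FDR is the p of edgeR's quasi-likelihood test after Benjamini-Hochberg adjustment over all genes tested, and genes with an FDR below 0.05 were called. Library totals in TEBs ran from 27989137 to 43078096 counts. The basal replicates were the less uniform group, with between-replicate correlations of log2 CPM of 0.873 to 0.941, against 0.972 to 0.977 among luminal replicates. Genes of the mitochondrial chromosome took 37.5%, 4.74% and 17.8% of the counts in basal replicates 1, 2 and 3 and 4.34% to 4.77% in luminal replicates, and no count was seen in the same basal replicates for 25.5%, 3.48% and 12.7% of genes tested.

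Basal and luminal TEB cells differed in 4354 genes, 25.1% of those tested. Of these, 2298 (13.2% of genes tested) were higher and 2056 (11.8%) were lower in basal cells, so 52.8% of calls were higher in basal cells. This split fell to 37.2% when library sizes were used without the composition scaling, a setting under which the median over all genes also moved, from 0.04 to -0.35 on the log2 scale. At least 4-fold differences were found for 1307 genes higher and 900 genes lower in basal cells, and 883 called genes differed by less than 2-fold. The CPM of the 3 basal and 3 luminal libraries did not overlap for 49.8% of genes tested, with basal libraries above for 22.6% and below for 27.2%. Genes higher in basal cells had a median gene model length of 3220 bases, against 3137 bases for those lower and 2446 bases for those not called.

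Called genes without overlap and with a mean log2 CPM over the TEB libraries of 4 or more were ranked by log2 fold change. Igfbp2, which binds insulin-like growth factors, was at 486, 581 and 558 CPM in basal TEB against 0.448, 0.381 and 0.52 CPM in luminal TEB (log2 10.22 ± 0.34, FDR 2.32e-08). It was followed among basal genes by the laminin chain Lama1 (9.92), the collagens Col14a1 (9.48) and Col17a1 (9.1), the chemokine Cxcl14 (9.19), the proteoglycan Vcan (9.07), the guidance glycoprotein Reln (8.92), Igfbp4 (8.87) and the contractile genes Acta2 (8.82) and Myh11 (8.8). Genes near silence in luminal cells can lie under that mean with changes of similar size, as did Adamts18 (10.71), Nrg1 (10.21) and Ccnd2 (9.61). In luminal cells the leading gene was Upk3a, a urothelial membrane plaque protein, at 0.981, 4.8 and 1.43 CPM in basal TEB against 1104, 1107 and 1093 CPM in luminal TEB (log2 -8.77 ± 0.75, FDR 4.77e-06). It was followed by the transcriptional coregulator Cited1 (-8.7), the fibrinogen chain Fgb (-8.51), the pioneer factor Foxa1 (-8.24), the growth factor Areg (-8.23), the keratins Krt7 (-8.09) and Krt19 (-7.6), the hormone Stc2 (-7.76), Itih2, which encodes a hyaluronan-binding plasma protein (-7.51), and the membrane protease Tmprss2 (-7.47). The 3 libraries of 1 cell type lay above all 3 of the other for each of these 20 genes, a condition of the rule that chose them.

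**Figure D1:**
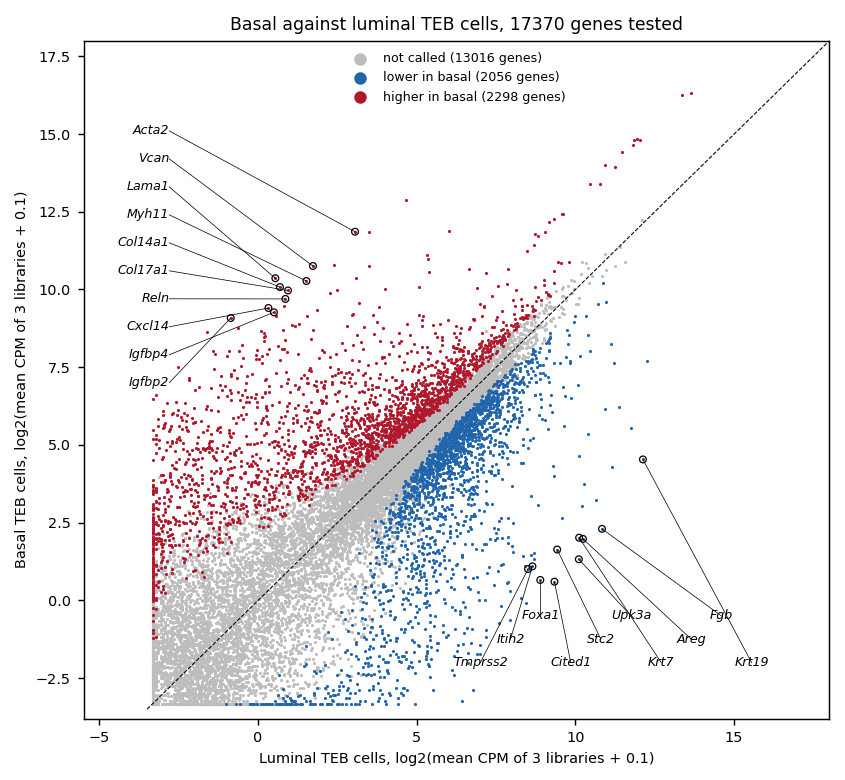
Mean expression of the 17370 genes tested in luminal TEB cells (horizontal axis) and basal TEB cells (vertical axis), both as log2 of the mean CPM of 3 libraries plus 0.1, with 2298 genes called higher (red) and 2056 called lower (blue) in basal cells. The 20 circled genes have the largest log2 fold changes among called genes with an average log2 CPM of 4 or more, and the dashed line marks equal expression.

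Some called genes had no count at all in the other cell type, 105 genes in luminal TEB libraries and 71 genes in basal TEB libraries. Those with a symbol and the highest mean CPM were looked up after their values were seen, the most abundant of all having no symbol in the tables used. Sema3a, a secreted repellent for axons and vessels, was at 49.98, 30.6 and 51.7 CPM in basal libraries, at least 726-fold above the level that 3 counts would give in each luminal library. Abcd2, a peroxisomal transporter of fatty acids, was at 33.2, 33.1 and 42.3 CPM in basal libraries, at least 596-fold higher on the same measure. Among luminal genes, the aldehyde dehydrogenase Aldh3b2 was at 28.4, 34.1 and 30.2 CPM and at least 289-fold higher than the limit of 3 counts in each basal library. Each of these genes was seen in every TEB library of 1 cell type, and its absence from the other was the condition that chose it. In luminal duct libraries Sema3a was at 0.0228 and 0.123 CPM and Abcd2 at 0.842 and 0 CPM. Aldh3b2 was at 0, 0 and 0.0257 CPM in basal duct libraries.

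Both cell types came from the same gate on CD29 and CD24 and were parted by the GFP joined to E-cadherin. Cdh1, which encodes E-cadherin, was at 99.4, 86.8 and 82.1 CPM in basal TEB against 440.3, 499 and 498 CPM in luminal TEB (log2 -2.42 ± 0.22, FDR 8.06e-06). Itgb1, which encodes CD29, was higher in basal cells (log2 1.37 ± 0.16, FDR 4.84e-05). Cd24a, which encodes CD24, was lower (log2 -1.9 ± 0.29, FDR 0.000411). None of these genes overlapped between cell types, as was so for 49.8% of all genes tested, and Cdh1 is not independent of the sort.

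All 8 keratins examined were called, with the 4 of the basal layer higher and the 4 of simple epithelium lower in basal cells. Krt14 was at 275, 468 and 248 CPM in basal TEB against 0.785, 3.07 and 1.23 CPM in luminal TEB (log2 7.6 ± 0.55, FDR 1.36e-06). Krt5, its type II partner, was at 301, 469.9 and 243 CPM in basal TEB against 4.55, 3.18 and 1.46 CPM in luminal TEB (log2 6.79 ± 0.53, FDR 2.43e-06). Krt17 (6.99) and Krt15 (3.58) rose with them, and Krt15 had the smallest change of the 4. Krt18 was at 19.8, 20.5 and 18.5 CPM in basal TEB against 2399, 2144 and 2336 CPM in luminal TEB (log2 -6.87 ± 0.28, FDR 6.16e-08). Its partner Krt8 was at 202, 215 and 201 CPM in basal TEB against 5164, 4684 and 4867 CPM in luminal TEB (log2 -4.57 ± 0.29, FDR 5.86e-07). Krt8 had a smaller log2 change than Krt18, Krt19 or Krt7. The values of no keratin overlapped between cell types, as was so for 49.8% of all genes tested. Per length of gene model, keratin RNA in luminal TEB cells was 39.1% Krt19, 32.7% Krt8, 19.7% Krt18 and 8.41% Krt7 of the summed RPKM of these 8 genes. In basal TEB cells it was 32.4% Krt17, 23.5% Krt14, 18.3% Krt5, 13.5% Krt8 and 8.38% Krt15. Genes that moved in opposite directions are neighbours in the genome (GRCm38.p6, RefSeq). The basal Krt14 (chr11:100203162-100207510), Krt17 (chr11:100256215-100261029) and Krt15 (chr11:100131759-100135949) share a type I cluster with the luminal Krt19 (chr11:100140810-100145926). The basal Krt5 (chr15:101707069-101712905) lies between the luminal Krt7 (chr15:101412403-101427806) and the luminal Krt8 (chr15:101996711-102004342).

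**Figure D2:**
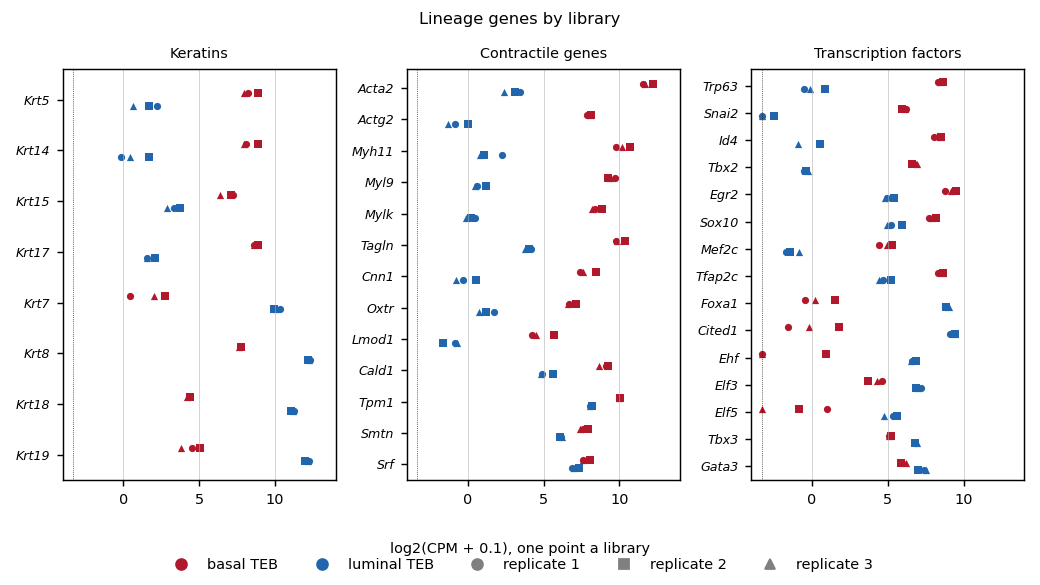
CPM of 8 keratins, 13 contractile genes and 15 transcription factors in each TEB library, as log2(CPM + 0.1), with basal libraries in red and luminal libraries in blue. For each gene drawn, the 3 libraries of 1 cell type lie on the same side of the 3 of the other, as for 49.8% of all genes tested. A point on the dotted line has no counts.

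Smooth muscle contractile genes were nearly all higher in basal TEB cells. Of 16 genes tested, 15 were called higher and 0 lower, with a median log2 fold change of 6.14 against 0.04 over all genes. Acta2, smooth muscle actin, was at 3066, 4714 and 3353 CPM in basal TEB against 10.8, 8.67 and 5.14 CPM in luminal TEB (log2 8.82 ± 0.54, FDR 4.95e-07). Myh11, the smooth muscle myosin heavy chain, was at 890.2, 1639.5 and 1179 CPM in basal TEB against 4.64, 2.0 and 1.68 CPM in luminal TEB (log2 8.8 ± 0.72, FDR 3.60e-06). The myosin light chain Myl9 was at 824, 619 and 672 CPM in basal TEB against 1.43, 2.21 and 1.29 CPM in luminal TEB (log2 8.74 ± 0.68, FDR 2.51e-06). Its kinase Mylk had a log2 fold change of 8.42. Among basal libraries, replicate 2 was the highest for Acta2 and Myh11 and the lowest for Myl9. The oxytocin receptor Oxtr, through which myoepithelial cells are made to contract at nursing, was already at 101, 138 and 95.9 CPM in basal TEB against 3.16, 2.21 and 1.56 CPM in luminal TEB (log2 5.6 ± 0.36, FDR 6.77e-07) in these pubertal TEBs. The smallest changes were those of Tpm1 (1.88), Smtn (1.48) and the transcription factor Srf (0.69, FDR 0.0135 by edgeR), which luminal cells also expressed. The Srf call was lost in 6 alternatives, among them no composition scaling and leaving out basal replicate 2 or luminal replicate 1 or 3. The coactivator Myocd was not called (log2 2.15 ± 2.43, FDR 0.576), with at most 0.716 CPM in any TEB library.

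Serum response factor, the product of Srf, binds the CArG box, a run of A and T bases between CC and GG. Of the 16 contractile genes, 12 had a promoter in the RefSeq table of GRCm38.p6, and the 250 bases before the start held a CArG box in 2 of them, Myl9 and Srf itself. The box was found in 1.62% of 27025 genes with a promoter, in 2.56% of genes called higher in basal cells, in 1.26% of those called lower and in 1.32% of those not called. The motif reads the same on both strands and was searched in these 250 bases only, so a box further away or inside the gene would not be seen. The Myl9 and Srf promoters are shown because they are the contractile gene promoters that held the box, with each CArG box in capitals. Both are printed in the direction of transcription, Myl9 at chr2:156775214-156775463 on the plus strand and Srf at chr17:46556163-46556412 on the minus strand.
Myl9: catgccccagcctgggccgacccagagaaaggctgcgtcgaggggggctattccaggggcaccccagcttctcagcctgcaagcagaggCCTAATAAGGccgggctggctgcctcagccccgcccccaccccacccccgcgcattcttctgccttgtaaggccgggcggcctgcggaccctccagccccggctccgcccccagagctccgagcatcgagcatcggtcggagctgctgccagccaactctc
Srf: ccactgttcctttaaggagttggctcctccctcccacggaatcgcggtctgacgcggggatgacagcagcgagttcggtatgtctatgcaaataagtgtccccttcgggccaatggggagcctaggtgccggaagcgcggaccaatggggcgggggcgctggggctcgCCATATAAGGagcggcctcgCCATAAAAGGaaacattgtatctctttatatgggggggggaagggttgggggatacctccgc
The box of Myl9 starts at position -161 from the transcription start and those of Srf at -82 and -62, and the 2 genes differed in the size of the change, 8.74 against 0.69 on the log2 scale.

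Transcription factors of the basal lineage were higher in basal cells for 8 of 13 genes and lower for 0, and the remaining 5 were rarely counted. Trp63, the p53 family member that maintains basal epithelium, was at 318, 403 and 349 CPM in basal TEB against 0.583, 1.7 and 0.809 CPM in luminal TEB (log2 8.42 ± 0.74, FDR 5.96e-06). Snai2 was at 71.97, 61.5 and 69.7 CPM in basal TEB, against 4 counts in all 3 luminal libraries together (log2 11.15 ± 0.93, FDR 4.13e-06). Id4, an inhibitor of helix-loop-helix factors, was at 266, 359.5 and 341 CPM in basal TEB against 1.35, 1.31 and 0.424 CPM in luminal TEB (log2 8.29 ± 0.51, FDR 4.89e-07). Tbx2 (7.37), Mef2c (6.6), Egr2 (4.1), Sox10 (2.53) and Tcf4 (1.03) were also higher. The genes not called were Snai1, Twist1, Twist2, Zeb1 and Zeb2, the other factors linked to mesenchymal change in the list. None exceeded 3.46 CPM in a TEB library.

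Luminal transcription factors fell in 15 of 21 genes. Foxa1, which opens chromatin for the estrogen receptor, was at 0.635, 2.76 and 1.04 CPM in basal TEB against 444, 458 and 523 CPM in luminal TEB (log2 -8.24 ± 0.88, FDR 2.73e-05). Cited1 was at 0.231, 3.26 and 0.756 CPM in basal TEB against 558, 686 and 695 CPM in luminal TEB (log2 -8.7 ± 1.09, FDR 9.18e-05). Factors linked to luminal progenitors and alveolar cells were lower too. Elf5 was at 1.85, 0.463 and 0 CPM in basal TEB against 40.4, 48.3 and 27.1 CPM in luminal TEB (log2 -5.83 ± 1.22, FDR 0.00384). Ehf was at 0, 1.79 and 0 CPM in basal TEB against 95.6, 117 and 90.8 CPM in luminal TEB (log2 -7.17 ± 1.01, FDR 0.00023). Gata3, required for luminal differentiation, was lower in basal cells by a modest amount, with 61.7, 58.02 and 72.8 CPM in basal TEB against 163, 127 and 185 CPM in luminal TEB (log2 -1.31 ± 0.21, FDR 0.00055). In the opposite direction, Tfap2c, an AP-2 factor listed with luminal genes, was higher in basal cells, at 316, 392 and 395 CPM in basal TEB against 25.6, 35.99 and 21.1 CPM in luminal TEB (log2 3.74 ± 0.22, FDR 4.67e-07). Its relative Tfap2b was lower (-1.66), and Tfap2a was at 35.2, 41.5 and 50.02 CPM in basal TEB against 46.6, 44.3 and 47.8 CPM in luminal TEB and was not called (log2 -0.13 ± 0.22, FDR 0.714). Bcl11a was also higher in basal cells (log2 2.0 ± 0.53, FDR 0.0154), a call lost in 6 alternative settings, including those leaving out basal replicate 2 or 3. Grhl2, a grainyhead factor of epithelia, was at 96.6, 93.4 and 79.6 CPM in basal TEB against 113, 101 and 113 CPM in luminal TEB and was not called (log2 -0.28 ± 0.18, FDR 0.299).

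The receptors for estrogen, progesterone and prolactin were luminal. Esr1, the estrogen receptor, was at 0, 3.5 and 1.26 CPM in basal TEB against 108, 125 and 122 CPM in luminal TEB (log2 -6.11 ± 0.93, FDR 0.000396). Pgr, the progesterone receptor, was at 19.4, 25.6 and 19.5 CPM in basal TEB against 462, 183 and 285 CPM in luminal TEB (log2 -3.85 ± 0.4, FDR 2.38e-05). The prolactin receptor Prlr was at 14.7, 6.57 and 6.83 CPM in basal TEB against 1721, 1485 and 1601 CPM in luminal TEB (log2 -7.44 ± 0.6, FDR 3.19e-06). All 3 luminal libraries exceeded every basal library for the 3 genes, and Pgr was the most variable among luminal replicates. Other hormone receptors were higher in basal cells. The vitamin D receptor Vdr was at 90.8, 103 and 95.4 CPM in basal TEB against 32.3, 43.5 and 36.7 CPM in luminal TEB (log2 1.36 ± 0.19, FDR 0.000212). The glucocorticoid receptor Nr3c1 was at 76.1, 84.4 and 62.1 CPM in basal TEB against 24.6, 27.9 and 17.3 CPM in luminal TEB (log2 1.67 ± 0.21, FDR 9.43e-05). The growth hormone receptor Ghr was also called higher in basal cells (log2 0.96 ± 0.29, FDR 0.03), but lost that call in 12 alternatives.

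Of 9 genes of hormone-sensing luminal cells, 8 were lower in basal cells and 0 higher, with a median log2 fold change of -6.11. These include Esr1, Pgr, Prlr, Cited1, Areg, Wnt4, Tspan13 and the mechanosensitive channel Piezo2 (0, 1.28 and 0.224 CPM in basal TEB against 224, 173 and 185 CPM in luminal TEB). The ninth, Tnfsf11, the RANK ligand that mediates progesterone signals, was not called, with at most 0.316 CPM in any TEB library. Of 7 luminal progenitor genes, 5 were lower in basal cells. Prom1 was at 2.37, 2.99 and 4.79 CPM in basal TEB against 136, 119 and 158 CPM in luminal TEB (log2 -5.33 ± 0.95, FDR 0.00134). Cd14 was at 0, 0.779 and 0 CPM in basal TEB against 31.6, 53.3 and 35.97 CPM in luminal TEB (log2 -7.0 ± 1.13, FDR 0.000626). Kit was at 48.8, 83.2 and 73.8 CPM in basal TEB against 107, 159.5 and 87.7 CPM in luminal TEB and was not called (log2 -0.78 ± 0.48, FDR 0.271). Itga2 was higher in basal cells (log2 3.15 ± 0.38, FDR 6.74e-05). Hormone-sensing and progenitor genes were thus both present in the luminal libraries, where cells of the 2 states cannot be told apart.

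The EGF family ligands had calls in both directions. The neuregulins Nrg1 and Nrg2 were basal. Nrg1 was at 164, 116 and 142 CPM in basal TEB against 0.224, 0.0762 and 0.0578 CPM in luminal TEB (log2 10.21 ± 0.53, FDR 1.85e-07). Nrg2 was at 102, 116 and 89.4 CPM in basal TEB against 0.493, 1.41 and 1.31 CPM in luminal TEB (log2 6.57 ± 0.49, FDR 1.81e-06). The receptors Erbb3 and Erbb2 were luminal. Erbb3, which binds neuregulins, was at 41.7, 51.2 and 43.4 CPM in basal TEB against 221, 237 and 238 CPM in luminal TEB (log2 -2.35 ± 0.57, FDR 0.00952), a call lost with the mitochondrial share as a covariate. Its partner Erbb2 was at 32.9, 31.1 and 27.4 CPM in basal TEB against 139.8, 154 and 164 CPM in luminal TEB (log2 -2.32 ± 0.29, FDR 8.52e-05). Some ligands of the EGF receptor were luminal. Areg was at 0.0577, 7.2 and 4.26 CPM in basal TEB against 1789.7, 934 and 892 CPM in luminal TEB (log2 -8.23 ± 1.22, FDR 0.000329). Btc was at 0, 0.505 and 0 CPM in basal TEB against 39.9, 16.9 and 19.4 CPM in luminal TEB (log2 -6.98 ± 1.27, FDR 0.00151), and Hbegf changed by -2.49 on the log2 scale. Egfr itself was basal, at 63.03, 86.5 and 75.6 CPM in basal TEB against 5.49, 10.97 and 6.4 CPM in luminal TEB (log2 3.3 ± 0.29, FDR 5.95e-06). Nrg1 and Nrg2 thus had their higher RNA level in other cells than Erbb3, and Areg and Btc in other cells than Egfr. Of the 10 EGF family ligands tested, 2 were higher and 5 lower in basal cells. Of the 5, the neuregulin Nrg4 (log2 -2.98 ± 1.01, FDR 0.0496) lost its call in 19 alternatives and Epgn (log2 -4.06 ± 1.21, FDR 0.0276) in 7.

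Wnt ligands had calls in both directions, while most receptors and feedback genes that changed were basal. Wnt4, a target of progesterone, was at 2.89, 2.02 and 1.4 CPM in basal TEB against 84.3, 63.3 and 79.5 CPM in luminal TEB (log2 -5.2 ± 0.44, FDR 4.30e-06). Wnt7b was at 0, 0.8 and 0.364 CPM in basal TEB against 85.6, 87.05 and 94.5 CPM in luminal TEB (log2 -7.64 ± 0.77, FDR 1.82e-05). Wnt6 was at 123, 96.4 and 103 CPM in basal TEB against 0.516, 0.286 and 0.27 CPM in luminal TEB (log2 8.24 ± 0.39, FDR 1.50e-07). Wnt10a had no count in luminal TEB libraries and 0.577, 6.67 and 5.85 CPM in basal libraries, at least 71.9-fold higher, with basal replicate 1 far below the other two. The ligand with the highest CPM, Wnt5a, was at 197, 234 and 214 CPM in basal TEB against 391, 403 and 470.4 CPM in luminal TEB, with no overlap between cell types, but was not called (log2 -0.97 ± 0.38, FDR 0.0856). Of 11 ligands tested, 2 were higher and 2 lower in basal cells, or 36.4% called against 25.1% of all genes. Among 19 receptors and R-spondins, 8 were higher and 1 lower. Fzd7 was at 242, 268 and 262 CPM in basal TEB against 22.5, 32.3 and 29.1 CPM in luminal TEB (log2 3.2 ± 0.22, FDR 9.02e-07). Among R-spondin receptors, Lgr4 was at 204, 216 and 249.8 CPM in basal TEB against 15.9, 16.1 and 12.4 CPM in luminal TEB (log2 3.91 ± 0.2, FDR 1.64e-07). Lgr6 was at 172, 179.5 and 157 CPM in basal TEB against 7.49, 11.8 and 6.88 CPM in luminal TEB (log2 4.28 ± 0.32, FDR 1.75e-06). Fzd4 was lower in basal cells, at 0, 3.31 and 0.448 CPM in basal TEB against 31.1, 31.8 and 31.8 CPM in luminal TEB (log2 -4.6 ± 1.04, FDR 0.00636). Lgr5 was at no more than 2.17 CPM and was not called (log2 2.33 ± 0.92, FDR 0.0876).

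Of 13 feedback genes and secreted inhibitors of Wnt signalling, 8 were higher in basal cells and 0 lower, with a median log2 fold change of 4.19. Axin2, a direct target of canonical Wnt signalling, was at 24.8, 27.1 and 28.2 CPM in basal TEB against 1.82, 2.63 and 1.75 CPM in luminal TEB (log2 3.69 ± 0.45, FDR 7.15e-05). Nkd1 was at 21.5, 39.2 and 26.4 CPM in basal TEB against 0.359, 0.21 and 0.0385 CPM in luminal TEB (log2 7.17 ± 0.71, FDR 1.49e-05). The ligases Znrf3 (1.79) and Rnf43 (0.97), which remove Wnt receptors, were also higher. The secreted inhibitor Wif1 was at 178, 141 and 125 CPM in basal TEB against 0.0673, 0.724 and 0.578 CPM in luminal TEB (log2 8.31 ± 0.69, FDR 4.10e-06). Sfrp1 (6.91) and Dkk3 (5.08), both in this list, had the same direction. Whether Dkk3 inhibits Wnt signalling in these cells was not tested. Calls for Rnf43 were lost without composition scaling.

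Notch ligands and a Notch receptor were higher in opposite cell types. Dll1 was at 156, 229 and 127 CPM in basal TEB against 0.448, 0.781 and 0.231 CPM in luminal TEB (log2 8.44 ± 0.63, FDR 1.75e-06). Jag2 was at 538, 439.7 and 380.2 CPM in basal TEB against 0.919, 2.76 and 2.74 CPM in luminal TEB (log2 7.72 ± 0.47, FDR 4.89e-07). Notch3 was at 3.41, 8.63 and 4.4 CPM in basal TEB against 255, 265 and 271 CPM in luminal TEB (log2 -5.57 ± 0.48, FDR 4.88e-06). The feedback inhibitor Nrarp was at 7.62, 6.17 and 7.87 CPM in basal TEB against 23.1, 24.4 and 24.2 CPM in luminal TEB (log2 -1.73 ± 0.41, FDR 0.00867). Thus the 2 ligands called were basal, and the receptor and the target called were luminal, the target Nrarp losing its call with the mitochondrial share as a covariate. Jag1 was at 100.3, 95.2 and 98.3 CPM in basal TEB against 92.4, 96.02 and 109 CPM in luminal TEB and its values overlapped (log2 -0.02 ± 0.19, FDR 0.959). Notch1 was at 121, 52.7 and 35.3 CPM in basal TEB against 114, 97.6 and 103 CPM in luminal TEB and was not called (log2 -0.59 ± 0.39, FDR 0.31). Of 9 receptors and targets, 7 were not called. The share called was 22.2% for these and 40% for the 5 ligands, against 25.1% of all genes, so the opposed directions rest on few genes.

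**Figure D3:**
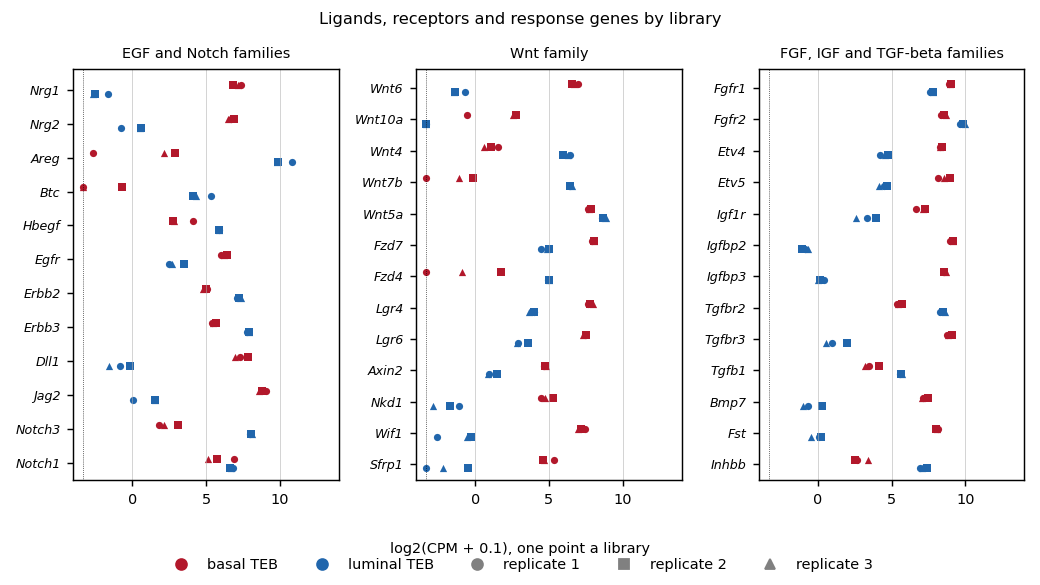
CPM of 38 ligands, receptors and response genes of the EGF, Notch, Wnt, FGF, IGF and TGF-beta families in each TEB library, as log2(CPM + 0.1), with basal libraries in red and luminal libraries in blue. Nrg1 and Nrg2 are higher in basal and Erbb3 in luminal libraries, Areg is higher in luminal and Egfr in basal libraries, and Dll1 and Jag2 are higher in basal and Notch3 in luminal libraries.

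Genes of the FGF response were higher in basal cells together. Of 10 FGF receptors and response genes, 8 were higher and 1 lower. The ETS factors Etv4 and Etv5, which are induced by FGF receptor and other ERK signals, were higher in basal cells. Etv4 was at 316, 335 and 312 CPM in basal TEB against 18.4, 26.4 and 22.98 CPM in luminal TEB (log2 3.83 ± 0.35, FDR 8.39e-06). Etv5 was at 278, 495 and 379 CPM in basal TEB against 21.97, 25.2 and 17.4 CPM in luminal TEB (log2 4.16 ± 0.32, FDR 2.19e-06). The feedback inhibitors Dusp6 (log2 fold change 2.56), Spry1 (2.3), Spry2 (2.28) and Spry4 (2.45) rose as well. Fgfr1 was higher in basal cells (479.5, 518 and 486 CPM in basal TEB against 193, 219 and 223 CPM in luminal TEB, log2 1.23 ± 0.19, FDR 0.000508). Fgfr2 was higher in luminal cells (328, 373 and 412 CPM in basal TEB against 795, 904 and 981 CPM in luminal TEB, log2 -1.27 ± 0.24, FDR 0.00183). Both receptors were abundant in each cell type, and the call of Fgfr1 was lost without composition scaling.

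In the IGF pathway 5 of 10 genes tested were higher in basal cells and 0 were lower. The receptor Igf1r was at 99.7, 152 and 138 CPM in basal TEB against 10.04, 14.8 and 5.76 CPM in luminal TEB (log2 3.67 ± 0.32, FDR 5.31e-06). Besides Igfbp2 and Igfbp4, 2 more binding proteins were higher. Igfbp3 was at 375, 377 and 406 CPM in basal TEB against 1.21, 1.01 and 0.886 CPM in luminal TEB (log2 8.54 ± 0.58, FDR 9.02e-07). Igfbp5 was at 1351, 1988 and 1483 CPM in basal TEB against 217, 313 and 177 CPM in luminal TEB (log2 2.77 ± 0.3, FDR 2.84e-05). The ligands Igf1 and Igf2 had at most 3.64 CPM in any TEB library and were not called.

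The TGF-beta and BMP family had calls in both directions, 6 higher and 4 lower of 20. The coreceptor Tgfbr3 was basal, at 437, 533 and 452 CPM in basal TEB against 1.84, 3.83 and 1.35 CPM in luminal TEB (log2 7.66 ± 0.67, FDR 5.58e-06). The signalling receptor Tgfbr2 was luminal, at 40.9, 52.4 and 43.1 CPM in basal TEB against 309, 356 and 392 CPM in luminal TEB (log2 -2.95 ± 0.18, FDR 4.59e-07). Tgfb1 was lower in basal cells, at 10.9, 17.1 and 8.82 CPM in basal TEB against 46.7, 48.9 and 51.5 CPM in luminal TEB (log2 -2.0 ± 0.29, FDR 0.000282). Bmp7 was basal (7.76 on the log2 scale). So was Fst, the activin antagonist follistatin (279, 262 and 263 CPM in basal TEB against 0.942, 1.05 and 0.616 CPM in luminal TEB, log2 8.27 ± 0.44, FDR 2.27e-07). The activin subunit Inhbb was luminal (6.12, 5.6 and 10.2 CPM in basal TEB against 120.4, 165 and 133 CPM in luminal TEB, log2 -4.25 ± 0.39, FDR 8.10e-06), so the antagonist and this subunit had opposite directions.

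Netrin 1 and its receptor neogenin are known to hold the cap layer to the body cells. Ntn1, which encodes netrin 1, was at 8.31, 11.4 and 17.3 CPM in basal TEB against 29.6, 50.4 and 32.2 CPM in luminal TEB (log2 -1.6 ± 0.38, FDR 0.00896). Neo1, the neogenin gene, was at 199.8, 145 and 140.1 CPM in basal TEB against 50.5, 59.7 and 60.1 CPM in luminal TEB (log2 1.51 ± 0.19, FDR 0.000106). Slit2 was basal (12.4, 21.5 and 12.3 CPM in basal TEB against 3.41, 3.58 and 3.51 CPM in luminal TEB, log2 2.14 ± 0.41, FDR 0.00207), as was Slit3 (9.22 on the log2 scale). Their receptor Robo1 was at 59.6, 67.6 and 64.97 CPM in basal TEB against 66.6, 62.8 and 72.7 CPM in luminal TEB and was not called (log2 -0.07 ± 0.22, FDR 0.855). The netrin ligand was therefore higher in luminal cells and its receptor in basal cells, and the Ntn1 call was lost with the mitochondrial share as a covariate.

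Basement membrane genes were mostly basal. Of 24 tested, 18 were higher in basal cells and 0 lower, with a median log2 fold change of 4.07. The collagen IV chains Col4a1 and Col4a2, which assemble together, were both basal. Col4a1 was at 8210.3, 7836 and 6578 CPM in basal TEB against 24.9, 32.4 and 18.7 CPM in luminal TEB (log2 8.22 ± 0.5, FDR 4.88e-07). Col4a2 was at 4219.9, 3910.1 and 2968 CPM in basal TEB against 9.19, 13.7 and 10.8 CPM in luminal TEB (log2 8.36 ± 0.48, FDR 3.76e-07). The chains Lama1, Lamb1 and Lamc1, which form 1 laminin, were basal. Lama1 was at 1614, 1209 and 1122 CPM in basal TEB against 1.43, 1.92 and 0.713 CPM in luminal TEB. Lamb1 (7.28) and Lamc1 (4.03) rose with it on the log2 scale. Lama3 and Lamb3, chains of a laminin of hemidesmosomes, were higher too, with log2 fold changes of 7.52 and 2.81. Lama5 was at 447, 396 and 275 CPM in basal TEB against 738, 466 and 564 CPM in luminal TEB and was not called (log2 -0.66 ± 0.28, FDR 0.106), and neither was Lamb2 (log2 -0.42 ± 0.19, FDR 0.147). These were the laminin genes with the highest RPKM in luminal cells, at 51.7 and 34.6. Per length of gene model, the highest basal levels were 1140.1 RPKM for Col4a1, 576 for Col4a2 and 306 for Col18a1. Next came 226 RPKM for Lamb1, 218 for Col7a1, 212 for Lamc1, 184 for Col17a1, 149.8 for Agrn and 138 for Lama1. The anchoring collagens Col7a1 (5.63) and Col17a1 (9.1), and the proteoglycans Hspg2 (4.21) and Agrn (2.54), were higher in basal cells too.

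Among 15 interstitial matrix genes 9 were higher in basal cells and 0 lower. Sparc, a collagen-binding glycoprotein, was at 890.0, 1046 and 891 CPM in basal TEB against 1.5, 5.22 and 7.26 CPM in luminal TEB (log2 7.65 ± 0.66, FDR 5.46e-06). The fibril-associated Col16a1 was at 1677, 1509.9 and 1325 CPM in basal TEB against 43.5, 48.05 and 32.3 CPM in luminal TEB (log2 5.19 ± 0.25, FDR 1.50e-07). Of the fibrillar collagens of fibroblasts, Col3a1 was at 32.3, 128 and 53.9 CPM in basal TEB against 4.39, 24.5 and 25.3 CPM in luminal TEB and was not called (log2 1.99 ± 1.31, FDR 0.306). Col1a1 was not called either (log2 1.84 ± 1.05, FDR 0.231). The summed CPM of the fibroblast list (Pdgfra, Col1a1, Col1a2, Col3a1, Dcn, Lum and Dpt) was 227, 413 and 229.9 in basal and 11.7, 53.9 and 49.6 in luminal replicates, and 1 of the 7 was called, Dcn (157, 159.8 and 113 CPM in basal TEB against 0.986, 3.14 and 3.18 CPM in luminal TEB). Postn was at 21.9, 174 and 46.3 CPM in basal TEB against 2.38, 5.18 and 5.47 CPM in luminal TEB (log2 4.22 ± 0.97, FDR 0.00703), highest in basal replicate 2, where the fibroblast list also was, and its call was lost by limma voom. The part of fibroblast RNA in these values was not tested.

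Integrins, and metalloproteinases with their inhibitors, were higher in basal cells only in part. In each list 8 of 18 genes were higher, 1 was lower and 9 were not called. The share called was 50% in each, against 25.1% of all genes. Itga3 (2.21), Itga6 (1.63), Itga8 (4.88), Itga9 (6.94) and Itgav (1.65) were among the integrins that rose. Itgb4, the partner of Itga6 in hemidesmosomes, was lower (100.4, 82.2 and 81.2 CPM in basal TEB against 146, 134 and 142 CPM in luminal TEB, log2 -0.68 ± 0.22, FDR 0.0416), and this call was lost in 9 alternatives. Adamts18 was at 308, 441 and 431 CPM in basal TEB against 0.0448, 0.305 and 0.327 CPM in luminal TEB (log2 10.71 ± 0.89, FDR 3.97e-06). Adamts1 (log2 5.23 ± 0.27, FDR 1.73e-07) and the inhibitor Timp3 (log2 4.8 ± 0.35, FDR 1.52e-06) were also higher. The gelatinase Mmp2 was basal (31.0, 97.4 and 37.5 CPM in basal TEB against 0.404, 1.33 and 1.21 CPM in luminal TEB, log2 5.8 ± 0.9, FDR 0.000491). The membrane-bound Mmp15 was luminal (33.5, 23.3 and 25.5 CPM in basal TEB against 126, 134 and 143 CPM in luminal TEB, log2 -2.29 ± 0.32, FDR 0.0002).

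The cadherins differed in direction, with P-cadherin and N-cadherin higher in basal cells and E-cadherin, given above, lower there but present in both cell types. P-cadherin, Cdh3, was at 333, 239.6 and 236 CPM in basal TEB against 1.39, 1.14 and 0.982 CPM in luminal TEB (log2 7.84 ± 0.6, FDR 2.18e-06). N-cadherin, Cdh2, was at 103, 120.5 and 123 CPM in basal TEB against 0, 0 and 0.52 CPM in luminal TEB (log2 9.31 ± 1.43, FDR 0.000452). Desmosomal genes had calls in both directions. Dsc2 (-1.88), Pkp1 (-1.71) and Pkp2 (-8.88) were lower in basal cells, and Dsc3 (4.79), Dsg3 (7.45) and Pkp3 (0.77) were higher. The calls for Dsc3 and Pkp3 were each lost in 3 alternatives. Dsg2 was at 178, 149 and 124 CPM in basal TEB against 184, 176 and 187 CPM in luminal TEB and was not called (log2 -0.28 ± 0.19, FDR 0.32).

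Tight junction and polarity genes were mostly luminal, with 16 of 19 lower and 1 higher in basal cells and a median log2 fold change of -4.15. Cldn4 was at 7.04, 8.88 and 8.26 CPM in basal TEB against 1102, 1252 and 1219 CPM in luminal TEB (log2 -7.2 ± 0.31, FDR 7.62e-08). Cldn3 was at 4.68, 3.1 and 2.04 CPM in basal TEB against 226, 266 and 274 CPM in luminal TEB (log2 -6.32 ± 0.31, FDR 1.50e-07). Cldn7 was at 0, 0.99 and 1.37 CPM in basal TEB against 213, 197 and 188 CPM in luminal TEB (log2 -7.83 ± 0.79, FDR 1.75e-05). Occludin, Ocln, was at 0, 0.526 and 0.14 CPM in basal TEB against 69.9, 82.95 and 79.2 CPM in luminal TEB (log2 -8.17 ± 0.97, FDR 6.36e-05). The apical polarity gene Crb3 was at 0, 0.653 and 1.2 CPM in basal TEB against 41.4, 43.6 and 42.3 CPM in luminal TEB (log2 -6.0 ± 1.02, FDR 0.000956). Basal replicate 1 had no count for Cldn7, Ocln and Crb3, and the luminal replicates were close to each other for all 5 genes. The scaffold Tjp1, shared by other junctions, was lower by a smaller amount (98.5, 125 and 96.3 CPM in basal TEB against 208, 206 and 219.8 CPM in luminal TEB, log2 -0.99 ± 0.15, FDR 0.000504). Pard3 was the exception, higher in basal cells at 125, 143 and 149.6 CPM in basal TEB against 71.8, 66.7 and 70.99 CPM in luminal TEB (log2 1.0 ± 0.18, FDR 0.00127), a call lost without composition scaling.

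Genes of the apical surface and of secretion were luminal in 8 of 17 cases and basal in 2. Upk3a was accompanied by Upk2 (0, 0.0632 and 0.588 CPM in basal TEB against 27.1, 29.7 and 33.4 CPM in luminal TEB), whereas Upk1b was basal (13.3, 23.3 and 14.5 CPM in basal TEB against 0, 0.495 and 0.347 CPM in luminal TEB, log2 5.89 ± 0.96, FDR 0.000676). Fgb was at 0, 11.2 and 3.3 CPM in basal TEB against 1676, 2029.6 and 1775 CPM in luminal TEB (log2 -8.51 ± 1.46, FDR 0.000997), and its partner chain Fgg changed by -6.9 on the log2 scale. Wfdc2 (-7.35), Wfdc18 (-4.77) and Dmbt1 (-7.26), secreted by mucosal epithelia, fell alike. Of milk proteins, the casein gene Csn3 was at 393, 299 and 532 CPM in basal TEB against 135, 194 and 106 CPM in luminal TEB and was not called (log2 1.49 ± 0.73, FDR 0.164). Lcn2 was higher in basal cells (310.2, 299 and 304 CPM in basal TEB against 108, 188 and 81.3 CPM in luminal TEB, log2 1.28 ± 0.26, FDR 0.00339). The Lcn2 call was lost without composition scaling.

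**Figure D4:**
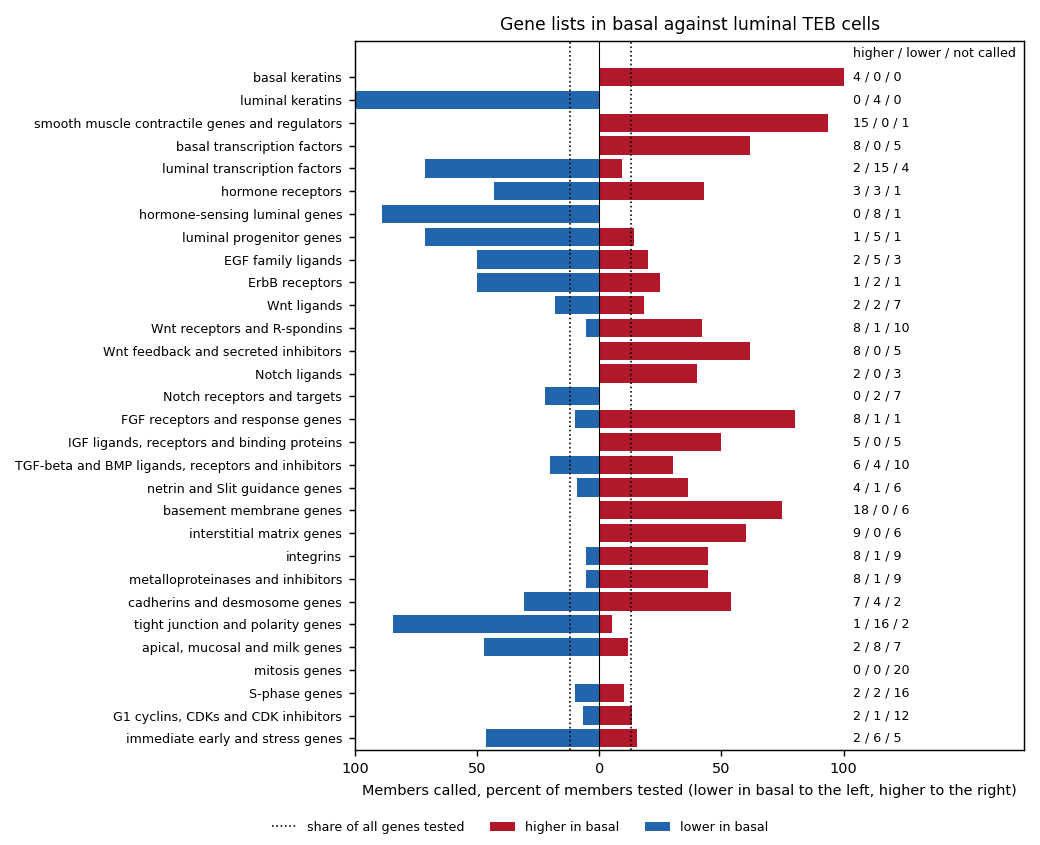
Share of tested members of each gene list called higher (red, to the right) and lower (blue, to the left) in basal TEB cells, with counts at the right, and dotted lines at 13.2% and 11.8%, the shares of all genes tested. Contractile, basement membrane and FGF response genes extend to the right, tight junction and hormone-sensing genes to the left, and the mitosis list has no bar.

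No difference between the cell types passed the test for genes of mitosis. None of 20 mitosis genes was called by edgeR's quasi-likelihood test, 2 had an unadjusted p below 0.05, and the median log2 fold change was -0.17. DESeq2 and the likelihood ratio test also called 0, limma voom called 1, and voom with sample quality weights called 6. A fit of the 6 TEB libraries alone called 4. Mki67 was at 456, 492 and 725 CPM in basal TEB against 395, 366 and 395 CPM in luminal TEB (log2 0.53 ± 0.34, FDR 0.282). Ccnb1 was at 63.5, 66.1 and 63.2 CPM in basal TEB against 37.3, 35.02 and 40.2 CPM in luminal TEB (log2 0.78 ± 0.3, FDR 0.0789). Both were higher in every basal than in any luminal library, and neither was called. The list's median change had the opposite sign. CPM did not overlap for 10 of the 20 mitosis genes, against 49.8% of all genes tested. The summed CPM of the list was 1519, 2131 and 2277 in basal and 2001, 1852 and 2199 in luminal replicates, so the cell types overlapped. Of 20 S-phase genes, 2 were higher and 2 lower in basal cells, or 20% called against 25.1% of all genes. Mcm6, of the replicative helicase, was at 105, 146 and 125 CPM in basal TEB against 301, 331 and 369 CPM in luminal TEB (log2 -1.41 ± 0.24, FDR 0.000942). The calls of the other S-phase genes lay between FDR 0.012 and 0.0478 by edgeR and were lost in 5 or more alternatives each.

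Of 15 G1 cyclins, CDKs and CDK inhibitors, 3 were called, or 20% against 25.1% of all genes. Ccnd1 was at 264, 169 and 188 CPM in basal TEB against 894, 920.1 and 919.5 CPM in luminal TEB (log2 -2.14 ± 0.23, FDR 2.83e-05). Ccnd2 was at 398, 499 and 391 CPM in basal TEB against 0.381, 0.61 and 0.636 CPM in luminal TEB (log2 9.61 ± 0.87, FDR 7.71e-06). Cdkn1c, the CDK inhibitor p57, was basal, at 75.8, 84.5 and 121 CPM in basal TEB against 0.807, 0.705 and 0.771 CPM in luminal TEB (log2 6.94 ± 0.9, FDR 0.000118). The remaining 12 genes were not called, among them Cdk4 (275, 275 and 271 CPM in basal TEB against 175, 190.1 and 192 CPM in luminal TEB, log2 0.56 ± 0.2, FDR 0.0616).

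Immediate early and stress genes, which are induced within minutes of a signal, were high in both cell types. Of 13 tested, 6 were lower in basal cells and 2 higher. Atf3 was at 233, 194 and 168 CPM in basal TEB against 2436, 2373 and 2332 CPM in luminal TEB (log2 -3.58 ± 0.32, FDR 6.50e-06), one of the 5 luminal genes with the highest CPM among those called. Fos (1229, 1897 and 2003 CPM in basal TEB against 2190.5, 2074 and 3085 CPM in luminal TEB, log2 -0.52 ± 0.27, FDR 0.198) and Jun (1182, 1560.5 and 1418 CPM in basal TEB against 1518, 1800.3 and 2104 CPM in luminal TEB, log2 -0.38 ± 0.23, FDR 0.266) were not called. The summed CPM of the list ran from 7059 to 10116 in basal and from 12897 to 15743 in luminal libraries. Besides Krt8, Krt19 and Atf3, the luminal genes with the highest CPM were the transglutaminase Tgm2 (42.1, 59.9 and 36.2 CPM in basal TEB against 5483, 1905 and 2898 CPM in luminal TEB, log2 -6.22 ± 0.6, FDR 1.23e-05) and Agps, an enzyme of ether lipid synthesis (81.9, 72.6 and 70.8 CPM in basal TEB against 3202, 1982 and 2808 CPM in luminal TEB, log2 -5.15 ± 0.27, FDR 1.98e-07).

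By the same rule, the 5 basal genes with the highest CPM were all encoded on the mitochondrial chromosome. COX1, a subunit of cytochrome c oxidase, was at 171260.0, 12134 and 53078 CPM in basal TEB against 10201, 11187 and 10155 CPM in luminal TEB (log2 2.91 ± 0.84, FDR 0.0242). Basal replicate 2 was close to the luminal replicates, and replicates 1 and 3 were above them, in the order of their mitochondrial share of counts. COX2 (2.91), COX3 (2.98), ATP6 (2.86) and ND4 (2.95) behaved likewise. All 5 calls were lost without basal replicate 1, without any 1 luminal TEB replicate and with the mitochondrial share as a covariate. Without both basal replicate 1 and luminal duct replicate 3 all 5 were called, COX1 at 1.63 (FDR 0.0345) and ATP6 at 1.54 (FDR 0.0486) on the log2 scale by edgeR.

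Each list of markers of other cell types had between 0 and 2 calls, or 0% to 33.3% of members tested, against 25.1% of all genes. Erythroid genes were not called (0 of 3 by edgeR, 0 at an unadjusted p below 0.05 and 0 by DESeq2 and limma voom), and 1 of 7 endothelial, 1 of 7 immune, 2 of 6 adipocyte, 2 of 6 pericyte and 1 of 5 Schwann cell genes were called, beside the fibroblast call above. The endothelial call was Vwf, lower in basal cells (-2.54), and was lost in 5 alternatives. The pericyte calls were Cspg4, higher (5.32) but lost in 3 alternatives, and Notch3, lower. The list's summed CPM was 4.56, 27.9 and 15.01 in basal and 256, 265 and 274 in luminal replicates, where Notch3 made up nearly all of it. The Schwann cell call was Sox10, also listed as a basal factor, at 209.7, 285 and 243 CPM in basal TEB against 37.3, 59.98 and 30.5 CPM in luminal TEB. The adipocyte calls, Adipoq (2.14, 0.421 and 2.13 CPM in basal TEB, no count in luminal TEB) and Lep (0.0446 FDR by edgeR), were each lost in 14 alternatives. The immune call was Cd68 (25.1, 21.2 and 26.9 CPM in basal TEB against 5.13, 6.61 and 4.33 CPM in luminal TEB), while the pan-leukocyte marker Ptprc had at most 1.03 CPM in any TEB library. For 46 called luminal genes at 10 CPM or more in luminal cells, the median level in basal replicates 1, 2 and 3 was 1.77%, 2.81% and 2.97% of the luminal mean, with 13, 0 and 4 of the genes at no count. For 43 called basal genes the median level in luminal replicates was 0.862%, 0.998% and 1.27% of the basal mean. Both sets were chosen by their calls, so low medians follow in part from the choice. The luminal set also held genes well counted in basal cells, such as Patj at 63.3%, 74.4% and 64.8%. These medians therefore do not measure the purity of the sort, which was not tested.

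The difference between cell types was finally compared between TEBs and ducts, as the change in basal over luminal cells in TEBs minus that in ducts. In ducts alone 22.3% of genes were called between basal and luminal cells. Of 17370 genes, 77 (0.443%) were called in the interaction by edgeR, 14 with a higher and 63 with a lower basal over luminal ratio in TEBs. The number depended on the libraries, ranging from 7 to 753 when 1 was left out, and no gene was called with the mitochondrial share as a covariate. With it, the interaction of the 17 named genes was 70.1% to 125% of that without it on the log2 scale, larger for 6 and smaller for 11. Without that covariate 2559 genes had an unadjusted p below 0.05. The ductal side rests on 2 luminal libraries, 1 of which had 28.5% of its counts on mitochondrial genes.

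For some of the genes called, luminal libraries differed more between structures than basal libraries did. Porcn, the acyltransferase needed for Wnt secretion, was at 87.1, 47.03 and 58.1 CPM in basal TEB against 5.29, 5.12 and 4.76 CPM in luminal TEB, and at 26.9, 37.5 and 33.1 CPM in basal duct and 24.5 and 37.96 CPM in luminal duct (interaction 3.6, SE 0.41, FDR 0.00479). Luminal libraries of ducts thus reached basal levels, and those of TEBs did not. The heparin-binding growth factor Mdk was at 235, 173 and 228 CPM in basal TEB against 1.48, 1.94 and 1.12 CPM in luminal TEB, and at 129, 125 and 166 CPM in basal duct and 4.46 and 6.87 CPM in luminal duct (2.49, FDR 0.0145). Axin2 was at 31.8, 25.8 and 23.9 CPM in basal duct and 0.0228 and 0.165 CPM in luminal duct. Its basal levels thus overlapped between structures, and its luminal level was higher in TEBs (-4.66, FDR 0.0253). The luminal duct values lay near the limit of 3 counts, which is 0.0683 and 0.123 CPM in those libraries. The size of the Axin2 interaction is therefore uncertain. Dropping luminal duct replicate 1 gave -3.654, and dropping replicate 3 gave -6.355. The hyaluronan synthase Has2 was at 42.1, 48.05 and 78.1 CPM in basal TEB against 30.4, 40.7 and 41.8 CPM in luminal TEB and was not called in TEBs (log2 0.58 ± 0.25, FDR 0.117). It was at 65.6, 72.01 and 83.8 CPM in basal duct and 3.98 and 3.33 CPM in luminal duct (-3.75, FDR 0.00401), with basal libraries that overlapped between structures.

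For others the libraries of both cell types differed between structures. Tgfbr2 was at 90.3, 86.6 and 76.7 CPM in basal duct and 135 and 159.5 CPM in luminal duct, a smaller contrast than in TEBs (-2.15, FDR 0.00562). The calcium-binding gene S100a6 was at 41.6, 49.96 and 29.5 CPM in basal TEB against 1332, 1368 and 1364 CPM in luminal TEB, and at 287, 292 and 187 CPM in basal duct and 863 and 912 CPM in luminal duct (-3.27, FDR 0.00401). Prss23, a serine protease, was at 42.1, 53.5 and 39.04 CPM in basal TEB against 48.2, 57.2 and 56.1 CPM in luminal TEB and was not called in TEBs (log2 -0.26 ± 0.17, FDR 0.304), but was at 203, 226 and 181 CPM in basal duct and 26.9 and 30.4 CPM in luminal duct (-3.09, FDR 0.00178). The remaining genes of the rule were Lgals7, Cst3 and Adamts9 with a higher ratio in TEBs and Lgals9 with a lower one. Among listed genes Jag1, Lamb3, Col4a6, Timp2 and Pkp1 had a lower ratio and Ltbp1 a higher ratio in TEBs.

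**Figure D5:**
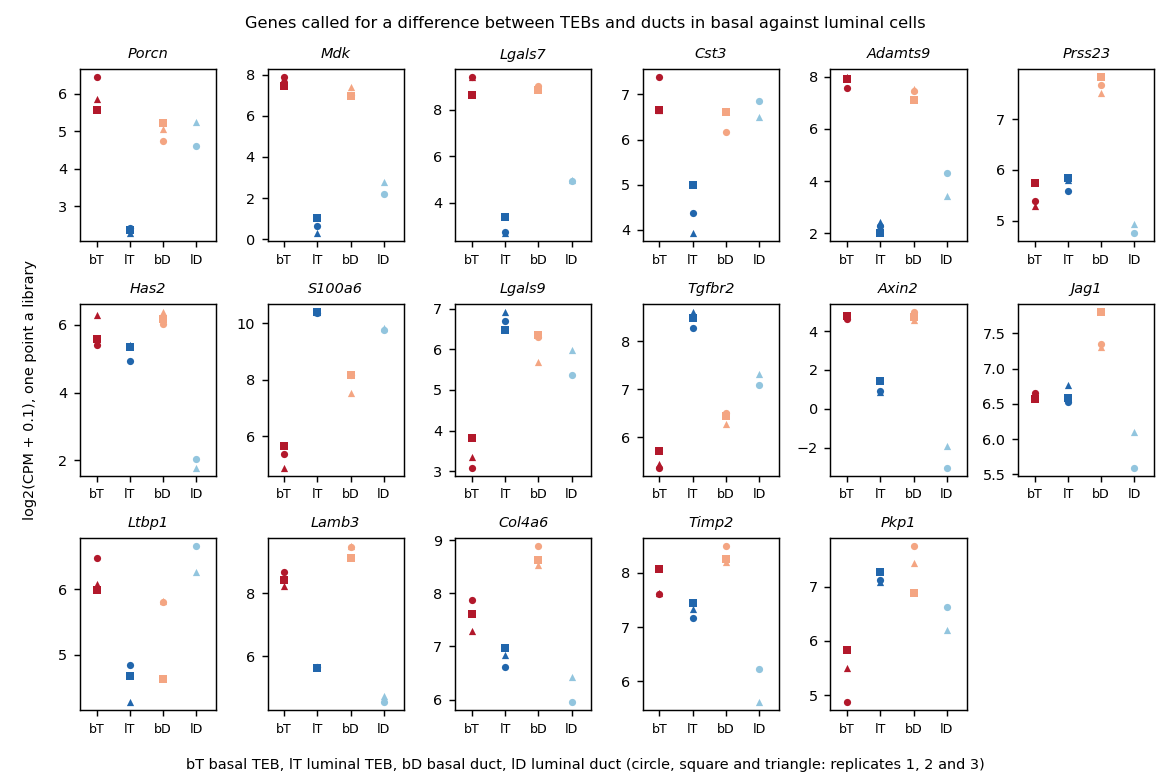
CPM of 17 named genes called in the interaction, as log2(CPM + 0.1), in each of the 11 libraries, with basal and luminal TEB on the left and basal and luminal duct on the right of each panel, and panels on separate vertical scales. Porcn and Cst3 are low in luminal TEB libraries only, and Prss23 and Has2 are close between cell types in TEBs and apart in ducts.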

How the data were processed

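The study's methods state that basal and luminal cells were sorted from TEBs and ducts of mice aged 5 weeks, and that libraries were sequenced as 80 bp paired-end reads, and the labels give the molecule as polyA RNA. The authors aligned reads to mm10 with Rsubread, and the deposited values are whole counts per Entrez gene, not normalized, with featureCounts named in the submitters' processing notes. The strand setting was not given in the sources used here and the kit does not mark strand, so overlapping genes cannot be told apart, nor can reads shared by near-identical copies such as Hspa1a and Hspa1b. All 11 deposited per-sample tables equalled the series table, and 0 columns were left unused. Groups came from the sample titles.

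Analysis used R 4.3.3 and edgeR 4.0.16. Genes passing filterByExpr (minimum count 10, minimum total 15) were kept, library sizes were scaled by TMM, and 1 quasi-likelihood model of 4 groups was fitted to the 11 libraries, with Benjamini-Hochberg adjustment and an FDR threshold of 0.05. The study's methods name edgeR's estimateDisp and glmFit. The SE was taken as the size of the log2 fold change over the root of F. RPKM divides mean CPM by gene model length. A count of 0 was given a limit of 3 counts per library, which covers counting error only (0.0572 to 0.173 CPM in TEB libraries). The common biological coefficient of variation was 0.704. The code was tested on simulated data with 194 of 16782 genes changed, a far smaller share than was called here. It recovered 8.33% of 2-fold, 29.2% of 4-fold and 64.6% of 8-fold changes, and 6.82% of calls were false. A gene that was not called is therefore not shown to be equal between cell types.

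The members and the 38 gene lists were chosen with earlier results of these data known. Genes named are list members, and, among called genes averaging 4 or more in log2 CPM, no overlap and no predicted name, the 10 with the largest log2 fold change and the 5 with the highest CPM in each direction, and, for the interaction, the 5 with the smallest p in each direction. Results of 2 listed genes by name are not reported here. Of 465 list entries, 26 were not tested, 24 for low counts and 2 because the file holds no such symbol. Alternatives covered scaling, filters, the test (DESeq2 1.42.0, limma 3.58.1), covariates, thresholds and the libraries fitted. Replicate numbers were not used as pairs, since the sources do not tie a number to a mouse pool.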

Additional observations from a re-analysis of the deposited data

Results flagged for a closer look

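A test of the difference itself, the interaction between cell type and structure in edgeR's quasi-likelihood model, picked out 17 named genes. Values are the log2 fold change of basal over luminal cells in TEBs minus that in ducts. It was higher in TEBs for Porcn (3.60), Cst3 (2.66), Ltbp1 (2.55), Mdk (2.49), Lgals7 (2.26) and Adamts9 (2.17). It was lower in TEBs for Axin2 (-4.66), Has2 (-3.75), Lgals9 (-3.71), S100a6 (-3.27), Prss23 (-3.09), Pkp1 (-2.69), Tgfbr2 (-2.15), Lamb3 (-1.92), Timp2 (-1.90), Col4a6 (-1.68) and Jag1 (-1.67). All 17 lost the call with the mitochondrial share as a covariate, under which the values were 70.1% to 125% of those given, larger for 6 genes and smaller for 11. Most lost it in other runs too. Of 27 alternatives, Lgals7 and Adamts9 lost the call in 13, Col4a6 in 12, and Axin2 and Ltbp1 in 11. Only Porcn, Prss23, S100a6 and Lgals9 lost it with that covariate alone. None of the 17 changed direction in any alternative run.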

How the results depend on the processing

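Of 29 alternatives, 2 moved the number of genes called between basal and luminal TEB cells by more than 1.5 times from 4354, to 7140 with limma voom and sample quality weights and to 2745 at an FDR of 0.01. Leaving out 1 library gave 3048 to 4867. The number called in the interaction, 77, was 15 without composition scaling, 141 without a filter, 629 by the likelihood ratio test, 712 by DESeq2, 46 with the replicate block, 0 with the mitochondrial share as a covariate, 31 with a fold-change threshold of 1.5, 7 at an FDR of 0.01, 198 without basal TEB replicate 1 and luminal duct replicate 3, and 7 (without basal duct replicate 1) to 753 (without luminal duct replicate 1) with 1 library left out. The cause was not tested. The pairing of replicates was examined from their deviations from the group means. The correlations between basal and luminal TEB replicates were 0.0726, 0.0793 and 0.0194 for the same number. For different numbers they ran from -0.108 to 0.0333, and values from so few replicates do not decide whether they were paired. The replicate block gave 4030 calls in TEBs over 11 libraries and 4133 over 6. It was not used in the main model because the sources do not tie a number to a mouse pool.

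Of 182 called named genes in TEBs, 155 kept direction and call in every alternative run for them, and 1 reversed, ATP6 (-0.0344 with the mitochondrial covariate). Of 36 named genes not called, 6 changed sign in at least 1 alternative. On the log2 scale Jag1 was 0.0111 with upper-quartile scaling, 0.0071 and 0.0103 in the 6 TEB libraries without and with the block, and -0.0711 to 0.0478 with 1 library left out. Igf2 was 0.17 with the block and -7.53 to 2.76 with 1 library left out. Ptprc was 0.12 with the mitochondrial covariate, 0.37 without basal TEB replicate 1 and luminal duct replicate 3, and -4.03 to 0.92 with 1 library left out. Snai1 was -0.69 with limma voom, -0.23 with the block, -0.39 with the block in the 6 TEB libraries, and -0.75 to 1.10 with 1 library left out. Lum was -0.20 with the block, and Tnfsf11 1.47 with the mitochondrial covariate. Genes near the limit of 3 counts carry wide errors, widest in basal replicate 1.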
